A study of Mus musculus with 2 samples.

Results

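Alpha cells, the glucagon-secreting cells of the pancreatic islet, made up 389 of the 22109 barcodes that passed the quality gates in mouse pancreas at embryonic day 14.5, with 145 of 7742 in the Null library and 244 of 14367 in the Control library. Expression was measured with the 10x Genomics droplet assay, which reads the 3′ end of each captured RNA and counts molecules by a unique molecular identifier (UMI). The Null library pooled 3 pancreata, drawn from 3 litters, of genotype Fgf9 -/-, in which a LacZ cassette sits in the Fgf9 locus and abolishes its function. The Control library pooled 8 pancreata, also from 3 litters, of genotypes Fgf9 +/+ and +/-. All mice were on a C57BL/6J background, pancreata were dissociated with TrypLE, and live DAPI-negative cells were sorted after a size gate. Because each group was 1 pooled library, no difference between Null and Control has a replicate check, no p-value is given, and genotype, pool and library cannot be told apart.

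A barcode was classed as an alpha cell where it held at least 3000 UMIs with under 10% from mitochondrially encoded genes, and where Gcg, the glucagon gene, reached at least 20 UMIs per 10000 and exceeded Ins1 plus Ins2, Sst and Ghrl. It also had to carry at most 1 UMI of the acinar factors Rbpjl and Ptf1a together, under 5 collagen UMIs (Col1a1, Col1a2 and Col3a1) per 10000, and at most 2 UMIs of Neurog3, the transient factor of endocrine progenitors. Gcg passed in 160 barcodes of the Null library and 318 of the Control library. Of these, 10 in Null and 44 in Control failed the limit on acinar factors. The collagen limit was failed by 4 in Null and 21 in Control, and the Neurog3 limit by 1 in Null and 17 in Control. Each limit was counted on its own, and some Control barcodes failed more than 1. Gcg lay between 20 and 40 per 10000, just inside the minimum, in 6 Null and 26 Control alpha cells, and between 10 and 20, just outside it, in 10 Null and 56 Control barcodes. Gcg therefore describes these cells by construction, and every gene that tracks it across classes is given as a description.

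Alpha cells raise blood glucose by secreting glucagon, which the convertase Pcsk2 cuts from proglucagon inside dense-core granules. They are among the earliest endocrine cells of the embryonic mouse pancreas, and arise from Neurog3-expressing progenitors that pass through an Fev-expressing stage. The Iroquois factors Irx1 and Irx2 are part of the alpha programme, and Pax4 and Nkx6-1 belong to the beta programme. FGF9 is a secreted growth factor made by mesothelium and epithelium in developing organs, and it acts mainly on neighbouring mesenchyme.

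The regions just upstream of 4 hormone genes that the results turn on are shown from RefSeq on GRCm38.p6, each as the 250 bases before the start of the transcript. Gcg lies at chr2:62483654-62483903 on the minus strand and chose the cells, Iapp at chr6:142298175-142298424 on the plus strand and Gast at chr11:100334157-100334406 on the plus strand are hormone genes expressed beside it, and Ins1 at chr19:52264047-52264296 on the plus strand is the beta-cell counterpart. Capitals mark matches to motifs searched on either strand, where a match on the opposite strand shows as the reverse complement. An E-box, a site of basic helix-loop-helix factors such as Neurod1, was searched as CAGATG. The TATA box, where transcription complexes assemble near a start site, was searched as TATAAA. The forkhead-type motif, bound by factors of the Foxa family among others, was searched as TATTTAC in the same way.
Gcg: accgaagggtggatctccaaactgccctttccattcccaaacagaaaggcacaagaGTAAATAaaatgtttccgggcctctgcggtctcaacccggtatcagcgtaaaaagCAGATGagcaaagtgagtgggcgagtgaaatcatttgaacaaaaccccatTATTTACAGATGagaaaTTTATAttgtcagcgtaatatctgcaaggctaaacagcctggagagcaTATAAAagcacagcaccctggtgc
Iapp: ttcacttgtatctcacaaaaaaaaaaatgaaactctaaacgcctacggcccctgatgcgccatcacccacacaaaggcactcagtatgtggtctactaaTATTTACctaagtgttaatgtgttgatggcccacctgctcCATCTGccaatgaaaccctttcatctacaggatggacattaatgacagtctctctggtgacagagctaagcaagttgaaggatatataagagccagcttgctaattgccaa
Gast: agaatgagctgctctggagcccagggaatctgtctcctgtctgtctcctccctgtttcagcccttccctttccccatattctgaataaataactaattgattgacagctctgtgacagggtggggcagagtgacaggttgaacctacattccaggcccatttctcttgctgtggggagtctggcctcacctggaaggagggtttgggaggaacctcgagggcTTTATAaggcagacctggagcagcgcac
Ins1: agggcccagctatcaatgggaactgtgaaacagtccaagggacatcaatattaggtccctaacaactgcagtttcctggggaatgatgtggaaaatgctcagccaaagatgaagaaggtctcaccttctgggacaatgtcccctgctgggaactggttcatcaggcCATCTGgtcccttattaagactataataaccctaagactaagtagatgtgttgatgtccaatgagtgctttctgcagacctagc
The Gcg stretch held E-boxes beginning 139 and 83 bases before the start, forkhead-type motifs at 194 and 89 bases, and TATA boxes at 72 and 24 bases, and the forkhead-type motif at 89 overlapped the E-box at 83 by its last letter. The Iapp stretch held an E-box at 111 bases and a forkhead-type motif at 151 bases, both motifs that Gcg also holds. Gast held only a TATA box, at 28 bases, and Ins1 only an E-box, at 84 bases. Of 32536 promoters of the same length, 14.4% held the E-box, 12.3% the TATA box and 2.72% the forkhead-type motif. A second forkhead-type motif, TGTTTAC, found in 3.17% of promoters, had no match in these 4 stretches. The homeodomain-type motif TAATTA, found in 4.84% of promoters, had none either. These matches describe letters in a window and were not tied to any measurement of binding.

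Null alpha cells held more UMIs, with a median of 25434 UMIs and 5777 genes per cell, against 16645.5 UMIs and 4587.5 genes in Control alpha cells. When every cell was thinned to 3000 UMIs, the median was 1595 genes in Null and 1574 in Control alpha cells, so the difference in detected genes nearly closed at equal depth. Summed over cells, Null alpha cells gave 3892563 UMIs and Control alpha cells 4169776, and levels below are UMIs of the class scaled to CPM, the counts-per-million scale of its total without mitochondrially encoded and haemoglobin genes. Intervals on shares are exact binomial and those on ratios are exact for Poisson counts, both at 95%, and they cover counting error only. No barcode sequence was an alpha cell in both libraries, although the libraries shared 180 barcode sequences, 28 of which passed the gates in both. Scrublet, a doublet caller, scored 3 Null and 2 Control alpha cells above 0.25. Its automatic thresholds, a score of 0.195 in Null and 0.140 in Control, marked 4 Null and 20 Control alpha cells. These 2 counts rest on unequal cut-offs and do not compare the libraries. Of those 20 Control cells, 11 lay in the lowest range of Gcg described further on. The disrupted gene itself was sparse, since Fgf9 had 0 UMIs in Null alpha cells, which allows up to 0.978 CPM, and 24 UMIs, or 5.99 CPM, in Control alpha cells. Fgf9 was still counted at 12.5 CPM in Null mesenchymal cells, against 15.5 CPM in Control mesenchymal cells, and the position of its 3′ tag relative to the cassette is not known here, so this count is a weak check of the genotype.

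RNA released from broken cells can reach every droplet, and its estimated load differed between the libraries. Pancreatic acinar enzymes, which alpha cells should lack, summed to 1916 CPM in Null alpha cells, 7.22% of that library's average, and to 2829 CPM in Control alpha cells, 19.01% of that library's average. The averages were 26540 CPM in Null and 14880 CPM in Control, so these percentages rest on unequal denominators. Acinar RNA from doublets was not separated from released RNA. Lists of other cell types were likewise lower in Null alpha cells for mesenchyme (205 CPM in Null, 364 CPM in Control), ductal and trunk epithelium (692 CPM in Null, 1205 CPM in Control) and endothelium (50.1 CPM in Null, 78.7 CPM in Control). Mesothelial genes summed to 18.3 CPM in Null and 25.7 CPM in Control alpha cells, red cell genes to 5.57 CPM in Null and 21.7 CPM in Control, and glia and neuron genes to 110 CPM in Null and 94.9 CPM in Control. Of the defining markers, 1 acinar, 1 mesenchymal, 3 mesothelial, 1 ductal, 3 endothelial, 4 red cell and 2 glial or neuronal genes stood at 0 in Null alpha cells. In Control alpha cells 1 acinar, 1 mesothelial, 2 ductal and 2 red cell genes stood at 0. For genes lower in Null alpha cells that are described below, an estimate of the released part, scaled by the acinar enzymes, is given beside the level or in the same paragraph.

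The cells were chosen by Gcg, 1 of the 4 markers given for alpha cells. The other markers, Irx2, Slc38a5 and Peg10, were higher than in beta cells in both libraries, but Irx2 did not separate alpha from epsilon cells. Beta and epsilon cells were picked with the same gates as the cells whose largest hormone was insulin or ghrelin, and hormone-low Fev cells, drawn as Fev precursors in the plots, had every hormone below 20 per 10000 and at least 2 UMIs of Fev. These classes held 397 beta, 104 epsilon and 713 hormone-low Fev cells over both libraries. A further 42 cells with Sst as the largest hormone were too few to compare.

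Gcg (chr2:62474530-62483650, minus strand, GRCm38 with GENCODE vM21) averaged 39184 CPM in Null alpha cells and 32676 CPM in Control alpha cells. It stood at 141 CPM (Null) and 162 CPM (Control) in beta cells and at 3862 CPM (Null) and 2404 CPM (Control) in epsilon cells. Across single alpha cells Gcg spread widely, from 22.3 per 10000 through a median of 329.9 to 4130 in Null, and from 20.1 through a median of 256 to 1198 in Control. The Null cell at 4130 had 0 UMIs of Irx1 and Irx2, and the next highest Null cell was at 1236 per 10000. Free RNA left a median of 0.25 Gcg UMIs per 10000 in Null acinar cells and 0.72 in Control acinar cells, far below the minimum of 20.

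The Iroquois factors set the class apart from beta cells, but Irx2 did not set it apart from epsilon cells. Irx2 (chr13:72628820-72634198, plus strand) had 363 CPM in Null and 303 CPM in Control alpha cells, against 13.8 CPM (Null) and 19.9 CPM (Control) in beta cells, a log2 ratio of alpha over beta of 4.72 in Null and 3.93 in Control. At 3000 UMIs per cell, an Irx2 UMI was found in 66.2% of Null and 53.7% of Control alpha cells, and without thinning in 97.2% of Null and 91.4% of Control alpha cells. None of 500 Null and 500 Control acinar cells drawn at random had an Irx2 UMI when thinned in the same way, which allows a share of up to 0.735% in each (interval bound), with median depths of 48910 UMIs in Null and 32180 UMIs in Control acinar cells. Irx1 (chr13:71957921-71963723, minus strand), its neighbour on chromosome 13, had 298 CPM in Null and 283 CPM in Control alpha cells, against 8.08 CPM (Null) and 16.6 CPM (Control) in beta cells. Neither Iroquois gene was exclusive to alpha cells among hormone cells, since epsilon cells held Irx2 at 242 CPM (Null) and 305 CPM (Control). The POU factor Pou3f4 had 276 CPM in Null and 210 CPM in Control alpha cells, against 12.4 CPM (Null) and 13.9 CPM (Control) in beta cells, and epsilon cells held more of it, 358 CPM (Null) and 282 CPM (Control).

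Slc38a5 and Peg10, also among the markers, were abundant. Slc38a5, an amino acid transporter of alpha cells (chrX:8271133-8280179, plus strand), had 5759 CPM in Null and 4685 CPM in Control alpha cells, against 1354 CPM (Null) and 1636 CPM (Control) in beta cells. Peg10, an imprinted gene derived from a retrotransposon (chr6:4747306-4760517, plus strand), had 3116 CPM in Null and 2795 CPM in Control alpha cells, against 688 CPM (Null) and 944 CPM (Control) in beta cells. Thinned, 99.3% of Null and 98.4% of Control alpha cells held a Slc38a5 UMI, and 95.9% in each library held a Peg10 UMI. Peg10 was not restricted to endocrine cells, as 32.2% of Null and 36.4% of Control mesenchymal cells held it at the same depth.

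**Figure D1:**
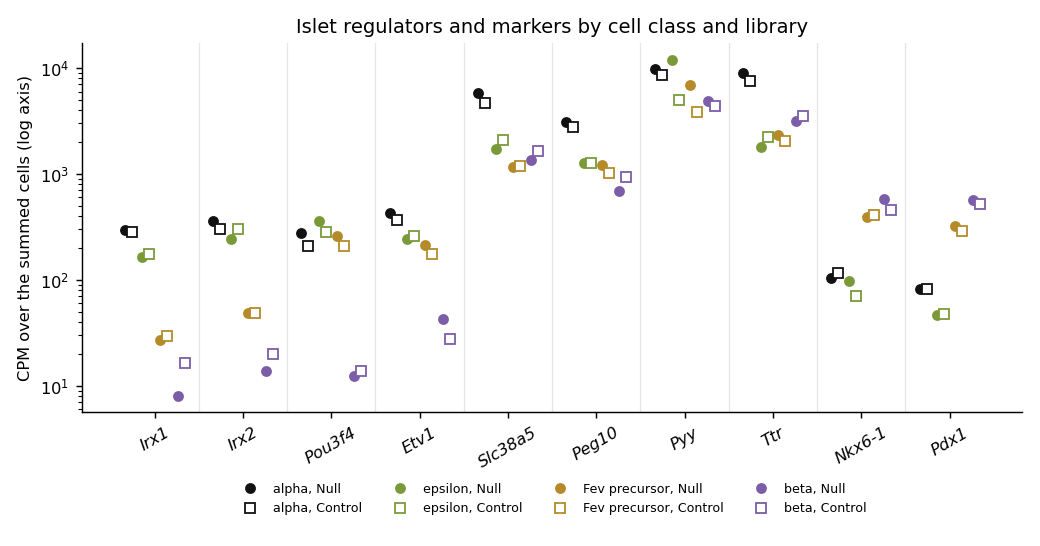
Levels of 10 marker genes on the counts-per-million scale of each class on a log axis, for alpha cells, epsilon cells, hormone-low Fev cells (Fev precursor) and beta cells, with a filled circle for Null and an open square for Control. Irx2 lies at 363 and 303 CPM in Null and Control alpha cells and at 13.8 and 19.9 CPM in Null and Control beta cells, whereas Pou3f4 is highest in epsilon cells, at 358 CPM (Null) and 282 CPM (Control).

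Many alpha cells carried the message of a further secreted peptide. Pyy, the gut and islet peptide YY, reached 20 per 10000 in 124 of 145 Null alpha cells (85.5%) and in 190 of 244 Control alpha cells (77.9%). Beta cells passed that level in 57.5% (Null) and 42.6% (Control), and epsilon cells in 84.6% (Null) and 58.5% (Control), so Pyy was shared with other endocrine cells. Ttr, the thyroxine carrier transthyretin, passed it in 135 Null alpha cells (93.1%) and 205 Control alpha cells (84.0%).

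Iapp, the amyloid peptide best known from beta cells, reached 20 per 10000 in 76 of 145 Null alpha cells (52.4%, 44.0 to 60.8) and in 76 of 244 Control alpha cells (31.1%, 25.4 to 37.4). Its per-cell median was 21.9 per 10000 in Null and 6.77 in Control alpha cells. Thinned to 3000 UMIs, an Iapp UMI was found in 84.8% of Null and 68.4% of Control alpha cells, against 97.2% of Null and 91.8% of Control unthinned, and in 4.6% of Null and 6.6% of Control acinar cells. Alpha cells stayed below beta cells, where Iapp averaged 12945 CPM (Null) and 9536 CPM (Control), and above epsilon cells, at 613 CPM (Null) and 421 CPM (Control).

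Gast, which encodes gastrin, a stomach hormone made transiently in the fetal pancreas, was held by a minority. It reached 20 per 10000 in 25 Null alpha cells (17.2%) and 38 Control alpha cells (15.6%), against 2.0% of Null and 1.02% of Control beta cells, and its 90th percentile was 46.7 per 10000 in Null and 35.9 in Control alpha cells. Epsilon cells passed that level in 6 of 39 Null cells (15.4%, 5.86 to 30.5) and 3 of 65 Control cells (4.62%), and hormone-low Fev cells in 7.66% (Null) and 3.64% (Control), so the trait was not particular to alpha cells. At the class level Gast had 1778 CPM in Null and 1265 CPM in Control alpha cells, and 187 CPM (Null) and 138 CPM (Control) in beta cells. Ppy, pancreatic polypeptide, passed 20 per 10000 in 6 Null (4.14%) and 10 Control (4.10%) alpha cells.

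Among alpha cells, those with a classical second islet hormone at 20 per 10000 were rare. The class rule bounds this count, since a cell with more insulin, Sst or Ghrl than Gcg was classed elsewhere. In epsilon cells the 90th percentile of Gcg was 102 per 10000 in Null and 70.7 in Control. In beta cells it was 1.04 in Null and 7.01 in Control. Insulin transcripts (Ins1 plus Ins2) reached 20 per 10000 in 9 Null alpha cells (6.21%, 2.88 to 11.5) and in 8 Control alpha cells (3.28%). An insulin UMI was found in 46.9% of Null and 49.2% of Control alpha cells thinned to 3000 UMIs, but also in 27.0% of Null and 30.8% of Control acinar cells and in 38.8% of Null and 55.0% of Control mesenchymal cells, so single insulin UMIs are read as background. Ghrl, the ghrelin gene, reached 20 per 10000 in 4 Null (2.76%) and 11 Control (4.51%) alpha cells. Sst, somatostatin, did so in 0 of 145 Null alpha cells, which allows a share of up to 2.51%, and in 0 of 244 Control alpha cells, which allows up to 1.5005%.

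**Figure D2:**
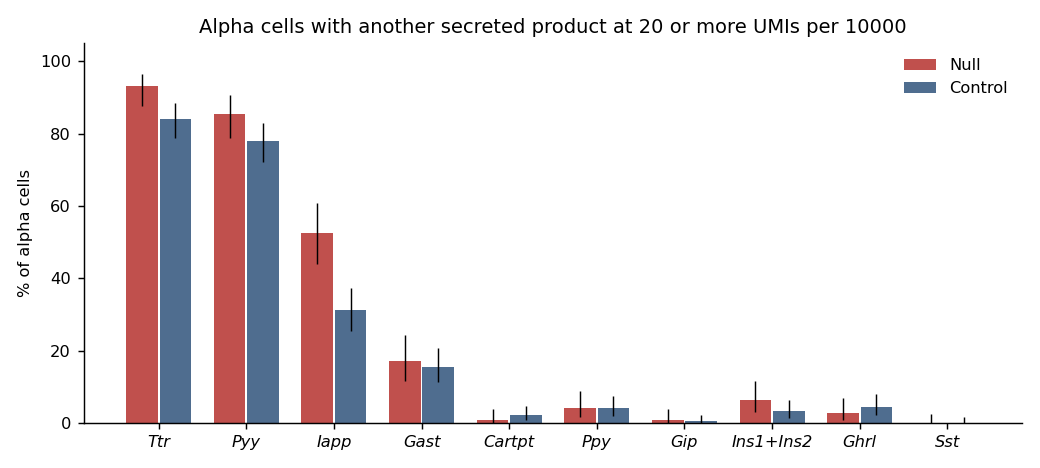
Percentage of alpha cells in which each secreted product reached 20 UMIs per 10000, in Null (left bar of each pair, 145 cells) and Control (right bar, 244 cells), with exact 95% binomial intervals as error bars. Ttr and Pyy lie above 77% in both libraries, Iapp at 52.4% in Null and 31.1% in Control, and insulin, ghrelin and somatostatin at or below 6.21%.

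Set against beta cells, alpha cells were described by 158 genes that were at least 2-fold higher in both libraries and 144 that were at least 2-fold lower, 2.06% and 1.88% of the 7679 genes with enough counts. A fold of 2 was the call used throughout, and since hormones chose both classes these counts describe them. Rgs4, a brake on G protein signalling, was the most selective gene after Gcg, with 71.6 CPM in Null and 67.2 CPM in Control alpha cells and 0.539 CPM (Null) and 1.66 CPM (Control) in beta cells. Gria2, an AMPA-type glutamate receptor subunit, had 123 CPM in Null and 117 CPM in Control alpha cells, against 5.39 CPM (Null) and 4.65 CPM (Control) in beta cells. Gk, glycerol kinase, had 57.5 CPM in Null and 54.7 CPM in Control alpha cells, against 2.51 CPM (Null) and 2.99 CPM (Control).

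The ETS factor Etv1, the peptide genes Gast and Edn3 (endothelin 3), and the chromatin remodeller Smarca1 completed the upper end. Etv1 had 424 CPM in Null and 367 CPM in Control alpha cells, against 42.8 CPM (Null) and 27.9 CPM (Control) in beta cells. Smarca1 had 591 CPM in Null and 467 CPM in Control alpha cells, against 74.0 CPM (Null) and 69.4 CPM (Control). Edn3 had 137 CPM in Null and 92.4 CPM in Control alpha cells, against 10.2 CPM (Null) and 12.0 CPM (Control). Cartpt, a neuropeptide gene, met the same rule, but 762 of its 860 Null UMIs and 221 of its 663 Control UMIs came from 1 cell in each library.

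Beta-cell genes were low in alpha cells in both libraries. Mafa had 5.04 CPM in Null and 6.24 CPM in Control alpha cells, against 534 CPM (Null) and 295 CPM (Control) in beta cells, and the glucose transporter Slc2a2 had 5.57 CPM in Null and 7.24 CPM in Control, against 393 CPM (Null) and 245 CPM (Control). Sytl4, the granule-docking protein granuphilin, had 3.45 CPM in Null and 2.00 CPM in Control alpha cells, against 370 CPM (Null) and 267 CPM (Control). Of the 15 beta markers tested, 14 in Null and 15 in Control were at least 2-fold lower in alpha cells, with medians of -3.52 in Null and -3.12 in Control on the log2 scale, beside medians over all genes of 0.12 in Null and 0.09 in Control. Nkx6-1 and Pdx1, factors of the beta programme, stood at 104.96 CPM (Null) and 117 CPM (Control) and at 81.4 CPM (Null) and 82.2 CPM (Control) in alpha cells. Thinned, 21.4% of Null and 19.3% of Control alpha cells held a Nkx6-1 UMI, close to acinar cells at 18.2% (Null) and 22.6% (Control).

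The folding machinery of the endoplasmic reticulum was lower in alpha than in beta cells, with 18 of 18 genes lower in both libraries and medians of -1.08 in Null and -0.92 in Control on the log2 scale. Hspa5, the chaperone BiP, had 1265 CPM in Null and 1126 CPM in Control alpha cells, against 2963 CPM (Null) and 2210 CPM (Control) in beta cells. Granule genes as a list did not separate the classes, with medians of -0.06 in Null and -0.12 in Control. Members went both ways, since Pcsk1, the convertase that beta cells use for insulin, had 139 CPM in Null and 87.7 CPM in Control alpha cells and 495 CPM (Null) and 381 CPM (Control) in beta cells. Proliferation genes of the G2 and M phases were higher in alpha than in beta cells for 28 of 30 genes in Null and 30 of 30 in Control, with medians of 0.43 in Null and 0.82 in Control. The Null value rests on 1 cell, which is described with the Gcg ranges. Without it, 14 of 29 genes with enough counts were higher and 15 lower in Null, with a median of -0.00074.

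Receptors followed cell type as well. Sstr2, the somatostatin receptor of alpha cells, had 20.9 CPM in Null and 12.0 CPM in Control alpha cells, against 0.359 CPM (Null) and 0.664 CPM (Control) in beta cells. Klb, the co-receptor for endocrine FGFs, had 35.0 CPM in Null and 29.0 CPM in Control alpha cells, against 5.93 CPM (Null) and 4.32 CPM (Control). Glp1r, the receptor for the incretin GLP-1, ran the other way, with 4.51 CPM in Null and 5.74 CPM in Control alpha cells and 65.0 CPM (Null) and 28.9 CPM (Control) in beta cells. Gcgr, the glucagon receptor, had 8 UMIs in Null and 6 UMIs in Control alpha cells.

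Set against the hormone-low Fev cells, alpha cells had 122 genes at least 2-fold higher and 193 at least 2-fold lower in both libraries, 1.44% and 2.28% of 8468 genes. Fev itself, a serotonergic-type ETS factor, had 71.8 CPM in Null and 56.2 CPM in Control alpha cells, against 385 CPM (Null) and 441 CPM (Control), but it chose the Fev cells. Chgb, the granule protein chromogranin B, had 4488 CPM in Null and 3564 CPM in Control alpha cells and 15962 CPM (Null) and 14031 CPM (Control) in Fev cells. The tight junction gene Cldn4 had 41.9 CPM in Null and 42.5 CPM in Control alpha cells, against 210 CPM (Null) and 196 CPM (Control), and the receptor tyrosine kinase Kit had 20.9 CPM in Null and 22.2 CPM in Control, against 86.0 CPM (Null) and 81.3 CPM (Control). Of the endocrine precursor genes, 13 of the tested members in Null and 15 in Control were lower in alpha cells, with medians of -1.09 in Null and -1.08 in Control. Pax4, a factor of the beta lineage, had 1.86 CPM in Null and 1.25 CPM in Control alpha cells and 49.5 CPM (Null) and 62.8 CPM (Control) in Fev cells. The intermediate filament gene Vim had 61.5 CPM in Null and 126 CPM in Control alpha cells, against 438 CPM (Null) and 450 CPM (Control).

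Set against epsilon cells, fewer genes had enough counts, and 73 were at least 2-fold higher in alpha cells and 54 at least 2-fold lower in both libraries, 1.17% and 0.864% of 6249. This comparison was added after the data had been seen. Pcsk2, the convertase that releases glucagon, had 1847 CPM in Null and 1707 CPM in Control alpha cells, against 342 CPM (Null) and 367 CPM (Control) in epsilon cells. The zinc transporter Slc30a8 had 132 CPM in Null and 83.9 CPM in Control alpha cells, against 13.6 CPM (Null) and 4.06 CPM (Control), and the LIM factor Lhx1 had 75.01 CPM in Null and 55.7 CPM in Control, against 6.80 CPM (Null) and 15.2 CPM (Control). Mboat4, the acyltransferase that activates ghrelin, had 6.89 CPM in Null and 9.24 CPM in Control alpha cells and 138 CPM (Null) and 168 CPM (Control) in epsilon cells. The cell cycle inhibitor Cdkn1a had 97.8 CPM in Null and 88.4 CPM in Control alpha cells, against 818 CPM (Null) and 1118 CPM (Control), and the LIM factor Isl1 had 975 CPM in Null and 808 CPM in Control, against 2111 CPM (Null) and 2001 CPM (Control).

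Alpha cells also differed among themselves along their level of Gcg, and were split into cells with 20 to 100, 100 to 300, and at least 300 Gcg UMIs per 10000. The lowest range held 21 Null cells (14.5%) and 63 Control cells (25.8%), the middle 44 Null (30.3%) and 80 Control (32.8%), and the highest 80 Null (55.2%, 46.7 to 63.4) and 101 Control (41.4%, 35.1 to 47.9). Comparing the highest with the lowest range, 12 genes were at least 2-fold higher in both libraries and 11 at least 2-fold lower, 0.282% and 0.258% of 4259 genes. Since Gcg ordered the cells, this order is a description, and it does not give a direction in time. Of the 21 Null cells in the lowest range, 1 stood apart, since it held all Null alpha UMIs of the basophil protease gene Mcpt8 and 407 of the 583 UMIs of G2 and M phase genes in that range. Without it, 12 genes were higher in the highest range and 4 lower, of 4216 genes with enough counts, and 3 of these 4 were among the 11.

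Genes higher where Gcg was high included metabolic and secretory genes. From the lowest to the highest range, Rgs4 had 33.9, 65.8 and 84.1 CPM in Null and 25.6, 57.0 and 95.2 CPM in Control. Fbp1, the gluconeogenic fructose-1,6-bisphosphatase, had 19.6, 68.7 and 102 CPM in Null and 22.4, 29.3 and 72.9 CPM in Control. Spink4, a peptide of secretory epithelia, had 16.04, 51.5 and 86.0 CPM in Null and 21.4, 24.4 and 83.2 CPM in Control. Ttr and Slc38a5 followed the same order without reaching 2-fold in both libraries, and Ttr had 5767, 6956 and 10877 CPM in Null and 4929, 5593 and 10046 CPM in Control. The collagen gene Col1a2 met the rule as well, with 21.4, 21.9 and 57.3 CPM in Null and 27.8, 36.6 and 65.2 CPM in Control, although the class rule caps its level and mesenchymal cells held it at 2603 CPM (Null) and 2341 CPM (Control). The summed mesenchymal list ran the other way in Control, with 489, 424 and 260 CPM, and in Null had 249.5, 231 and 181 CPM, or 140 CPM in the lowest range without the Mcpt8 cell.

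Chgb and Parm1 were higher where Gcg was low in both libraries. Chgb had 6895, 6517 and 2880 CPM in Null and 5485, 3978 and 2310 CPM in Control across the ranges of rising Gcg, and 6444 CPM in the lowest Null range without the Mcpt8 cell. Parm1, an androgen-regulated membrane mucin, had 98.0, 63.9 and 25.4 CPM in Null and 121, 48.0 and 33.2 CPM in Control, and 97.7 CPM in the lowest Null range without that cell.

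For Vim and for the G2 and M phase genes as a list the same order was seen in Control, and in Null it rested on the Mcpt8 cell. Vim had 132, 69.6 and 39.3 CPM in Null and 219, 155 and 58.7 CPM in Control, but the cell held 66 of its 74 UMIs in the lowest Null range, which without it had 15.96 CPM. Mki67, the proliferation marker Ki-67, had 118, 30.5 and 19.9 CPM in Null and 144, 100 and 62.0 CPM in Control, and 43.9 CPM in the lowest Null range without the cell, still above the other Null ranges. Summed over the list, G2 and M phase genes had 1039, 662 and 350.4 CPM in Null and 1790, 1644 and 711 CPM in Control. Without the cell the lowest Null range had 351 CPM, level with the highest. Gene by gene, 21 of 21 with enough counts were lower in the highest than in the lowest range in both libraries, with medians of -1.68 in Null and -1.40 in Control on the log2 scale, beside -0.02 in Null and -0.07 in Control over all genes. Without the cell 9 of 14 were higher and 5 lower in Null, with a median of 0.21.

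Immediate early genes, which also respond to tissue dissociation, were lower in the highest range for 19 of 19 genes in Null and 16 of 19 in Control, with medians of -1.08 in Null and -0.86 in Control. Without the Mcpt8 cell 18 of 19 were lower in Null, with a median of -0.47. Jun, a subunit of AP-1, had 552, 324 and 221 CPM in Null and 638, 381 and 260 CPM in Control, and 351 CPM in the lowest Null range without the cell. Klf6, an early-response zinc finger factor, had 105.1, 95.4 and 43.0 CPM in Null and 137, 103 and 60.4 CPM in Control, and 63.8 CPM in the lowest Null range without the cell. Alpha markers as a list moved little, with medians of 0.33 in Null and 0.30 in Control. Genes of the S phase went opposite ways, with medians of 0.32 in Null and -0.69 in Control, and so did ductal genes, at 0.08 in Null and -1.52 in Control. Acinar enzymes were at a similar level in all ranges, 2192, 1763 and 1918 CPM in Null and 2865, 2786 and 2839 CPM in Control, while median depth was 25434, 21470 and 26978 UMIs in Null and 13933, 15328.5 and 18746 UMIs in Control.

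**Figure D3:**
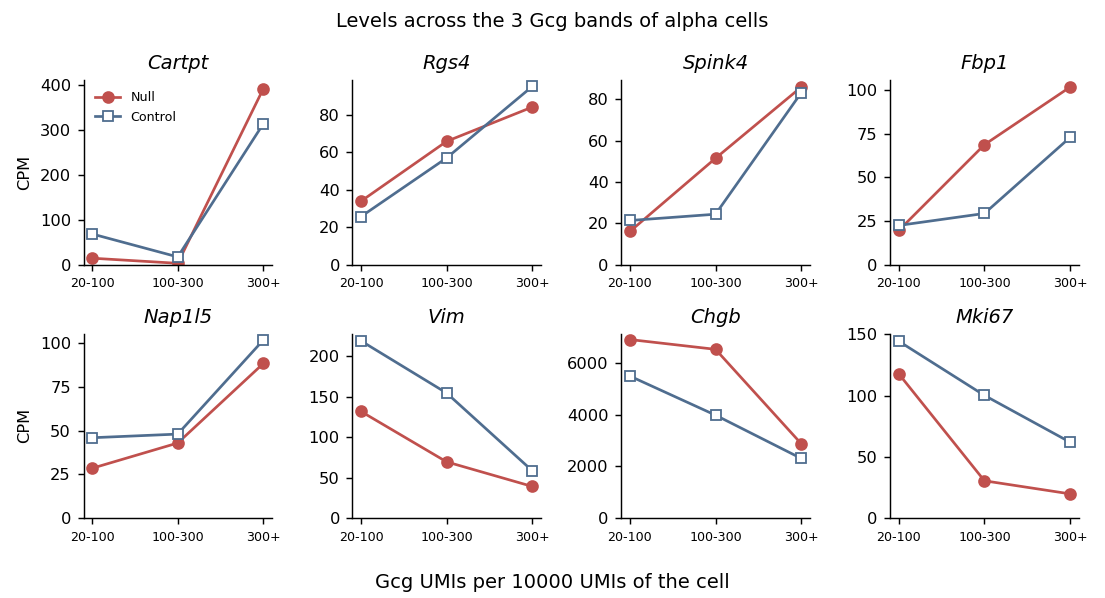
Levels of 8 genes on the counts-per-million scale, over alpha cells with 20 to 100, 100 to 300 and at least 300 Gcg UMIs per 10000, in Null and Control. Rgs4, Spink4 and Fbp1 end higher than they begin in both libraries, and Chgb ends lower in both, at 2880 CPM in Null and 2310 CPM in Control. Vim and Mki67 also end lower, but 66 of 74 Vim and 44 of 66 Mki67 UMIs of the lowest Null range lie in the Mcpt8 cell. Cartpt is drawn as well, and most of its Null UMIs lie in a single cell, as stated above.

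Comparing genotypes, alpha cells were 145 of 404 hormone-defined cells in the Null library (35.9%, 31.2 to 40.8) and 244 of 528 in the Control library (46.2%, 41.9 to 50.6). Beta cells ran the other way, at 49.5% in Null and 37.3% in Control. As a share of all gated barcodes, alpha cells were 1.87% in Null (1.58 to 2.20) and 1.70% in Control (1.49 to 1.92), and these intervals overlap. Fewer cells of a type and unequal recovery of other types cannot be told apart from shares.

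Glucagon itself was slightly higher in Null alpha cells. Gcg averaged 39184 CPM in Null and 32676 CPM in Control alpha cells, a log2 ratio of 0.26 (0.25 to 0.27), which became 0.07 after the estimated free RNA was subtracted and 0.14 when only cells with hormones of at least 100 per 10000 were kept. Since Gcg chose the cells, this is a description, as is the larger share of Null cells in the highest range. Over all 12118 genes with at least 20 UMIs the median log2 ratio was 0.002. That value describes all genes together and does not show that endocrine genes were centred. The totals used for scaling include free RNA of other genes, whose estimated load differed between the libraries.

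Among the 8116 genes with at least 100 UMIs, 23 were at least 2-fold higher in Null alpha cells and 95 at least 2-fold lower, 0.283% and 1.17%. With genes of at least 20 UMIs included, the counts were 166 and 417 of 12118, 1.37% and 3.44%. Without cells whose G2 and M phase genes reached 5 per 10000, which left 135 Null and 143 Control alpha cells, 12 genes were higher and 28 lower. Lower genes outnumbered higher genes in each of these counts, but not without cells holding 5 or more G2 and M phase UMIs. That setting left 64 Null and 55 Control alpha cells and is given in the closing section.

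Alpha markers were no lower in the Null library, apart from Gc. Of the 12 markers 11 were higher in Null alpha cells and 1 lower, none past 2-fold, with a median of 0.23. Slc38a5 had 5759 CPM in Null and 4685 CPM in Control (log2 ratio 0.30, 0.27 to 0.33), Pou3f4 276 CPM in Null and 210 CPM in Control (0.39, 0.26 to 0.53), and Irx2 363 CPM in Null and 303 CPM in Control (0.26, 0.15 to 0.37). Across alternatives these ratios ran from 0.11 to 0.34 for Slc38a5, from 0.002 to 0.49 for Pou3f4 and from 0.07 to 0.32 for Irx2. The marker median ran from 0.07 to 0.25, so these differences depend on the processing. Irx1 had 298 CPM in Null and 283 CPM in Control, with an interval that spans equality (0.08, -0.04 to 0.20). Gc encodes the vitamin D binding protein and had 33.4 CPM in Null and 46.7 CPM in Control alpha cells, with free RNA estimated at 19.9 CPM in Null and 36.5 CPM in Control. Factors shared by all endocrine cells stayed near equality, with a median of 0.03 over 19 genes, 12 higher and 7 lower, and Pax6 had 435 CPM in Null and 438 CPM in Control.

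Granule and prohormone processing genes were higher in Null alpha cells in 18 of 18 cases, with a median of 0.36 on the log2 scale and none past 2-fold. Scg2, secretogranin II, had 363 CPM in Null and 240 CPM in Control (0.59, 0.47 to 0.71). Pcsk1n, the convertase inhibitor proSAAS, had 1334 CPM in Null and 921 CPM in Control (0.53, 0.47 to 0.60). Pcsk1 had 139 CPM in Null and 87.7 CPM in Control (0.66, 0.46 to 0.86), and Slc30a8, which loads zinc into granules, had 132 CPM in Null and 83.9 CPM in Control (0.66, 0.45 to 0.86). Pcsk2 was closest to equality among those named, at 1847 CPM in Null and 1707 CPM in Control (0.11). The list was also higher in Null beta cells, with a median of 0.22, and in Null hormone-low Fev cells, with a median of 0.33, so a difference of this kind was not seen in alpha cells alone. After free RNA was subtracted, the median in alpha cells was 0.19. Of 26 exocytosis and excitability genes, 21 were higher in Null and the median was 0.22, among them Rab3b at 25.7 CPM in Null and 16.2 CPM in Control. Across alternatives that median ran from 0.07 to 0.30.

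Several hormone genes beside Gcg were higher in Null alpha cells to unequal degrees, but not all. Ins1 was lower, with 167 CPM in Null and 234 CPM in Control. Its free RNA was estimated at 48.5 CPM in Null and 63.7 CPM in Control. Iapp had 4527 CPM in Null and 2968 CPM in Control (0.61, 0.58 to 0.64), and across alternatives this ratio ran from 0.31 to 1.11. In the lowest Gcg range Iapp had 5662 CPM in Null and 1673 CPM in Control, in the middle 3546 CPM in Null and 3082 CPM in Control, and in the highest 4709 CPM in Null and 3550 CPM in Control. Beta cells showed the same direction, with a log2 ratio of 0.44. Estimated free RNA of Iapp itself was 32.0 CPM in Null and 52.0 CPM in Control. That estimate leaves out the free RNA of other genes in the totals used for scaling, whose estimated load differed between the libraries. Gast had 1778 CPM in Null and 1265 CPM in Control alpha cells (0.49, 0.44 to 0.54), and Pyy 9775 CPM in Null and 8500 CPM in Control (0.20, 0.18 to 0.22). Across alternatives the ratio ran from 0.19 to 0.68 for Gast and from 0.015 to 0.33 for Pyy. Gip, the incretin glucose-dependent insulinotropic polypeptide, had 58.8 CPM in Null and 23.2 CPM in Control (1.34, 0.99 to 1.71), with 1 cell in each library at or above 20 per 10000.

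Ghrl rested on few cells. It had 526 CPM in Null and 349 CPM in Control alpha cells (0.59, 0.49 to 0.69), but 913 of 1984 Null UMIs and 383 of 1398 Control UMIs lay in 1 cell each. The log2 ratio was -0.97 without cells carrying a second hormone and -2.10 without cells holding Mki67 or Top2a, so no direction is read from it.

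Further genes higher in Null alpha cells included metabolic genes. Fbp1 had 80.3 CPM in Null and 47.7 CPM in Control (0.75, 0.49 to 1.02), and Gpx3, a secreted glutathione peroxidase, had 362 CPM in Null and 236 CPM in Control (0.62, 0.49 to 0.74). Sstr2 had 20.9 CPM in Null and 12.0 CPM in Control (0.80, 0.27 to 1.35). Dynlt1a, a dynein light chain gene with near-identical copies among which reads could be split, had 62.6 CPM in Null and 35.5 CPM in Control (0.82) and is uncertain. Of the nutrient transport and receptor genes, 9 were higher and 7 lower, and their median was 0.15.

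The top of the list of higher genes came from 1 cell. Mcpt8 had 505 UMIs in Null alpha cells, all in that cell, and 0 UMIs in Control alpha cells. The cell held 61050 UMIs with Gcg at 50.5 per 10000, and it also carried 298 of 299 Null UMIs of the chemokine Cxcl2, 205 of 214 of the granule proteoglycan Srgn and 370 of 424 of the stress-response gene Ier3. Leukocyte genes summed to 90.4 CPM in Null and 40.5 CPM in Control alpha cells, and in the highest Gcg range, which this cell is not in, to 34.2 CPM in Null and 35.9 CPM in Control. Without the cell, 14 rather than 23 genes were at least 2-fold higher in Null.

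Proliferation genes made up the clearest lower group. All 30 genes of the G2 and M phases were lower in Null alpha cells, 24 of them past 2-fold, with a median of -1.40 on the log2 scale. Over all genes with at least 20 UMIs, 3.44% were at least 2-fold lower. Mki67 had 37.4 CPM in Null and 92.9 CPM in Control (-1.31), and Top2a, the mitotic topoisomerase, had 53.01 CPM in Null and 122 CPM in Control (-1.20). Birc5, the survivin gene of the chromosomal passenger complex, had 25.2 CPM in Null and 69.9 CPM in Control (-1.47), and Ccnb1, cyclin B1, had 7.42 CPM in Null and 31.0 CPM in Control (-2.06). Estimated free RNA was 21.0 CPM in Null and 47.0 CPM in Control for Mki67 and 28.2 CPM in Null and 71.9 CPM in Control for Top2a. It was 14.0 CPM in Null and 42.2 CPM in Control for Birc5 and 5.68 CPM in Null and 16.5 CPM in Control for Ccnb1. The list summed to 539 CPM in Null and 1250 CPM in Control alpha cells, and free RNA was estimated at 260 CPM of the Null sum and 690 CPM of the Control sum. With that part subtracted gene by gene, the median was -1.54, and without barcodes over Scrublet's automatic thresholds, set lower in Control, it was -0.74. Without the cell that carried Mcpt8, in which these genes reached 66.7 per 10000, the median was -1.68.

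Per cell, these genes had a median of 2.03 per 10000 in Null and 4.51 in Control alpha cells. They reached 5 per 10000 in 10 of 145 Null alpha cells (6.90%, 3.36 to 12.3) and 101 of 244 Control alpha cells (41.4%, 35.1 to 47.9). The cells with the most of these genes, 14 in Null and 24 in Control, held 54.9% of the Null and 50.02% of the Control UMIs of the list. Thinned to 3000 UMIs, a Mki67 or Top2a UMI was found in 11.0% of Null (6.44 to 17.3) and 21.7% of Control (16.7 to 27.4) alpha cells, whereas unthinned the shares were 42.8% and 59.4% in Null and Control. Acinar cells, which divide at this stage, had such a UMI in 63.0% (Null) and 63.4% (Control), and no cell type lacking these genes was available to set the background. The free RNA estimate for Control alpha cells, 690 CPM, lies above both the line of 5 per 10000 and the median Control cell, and its part in the difference was not tested cell by cell.

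**Figure D4:**
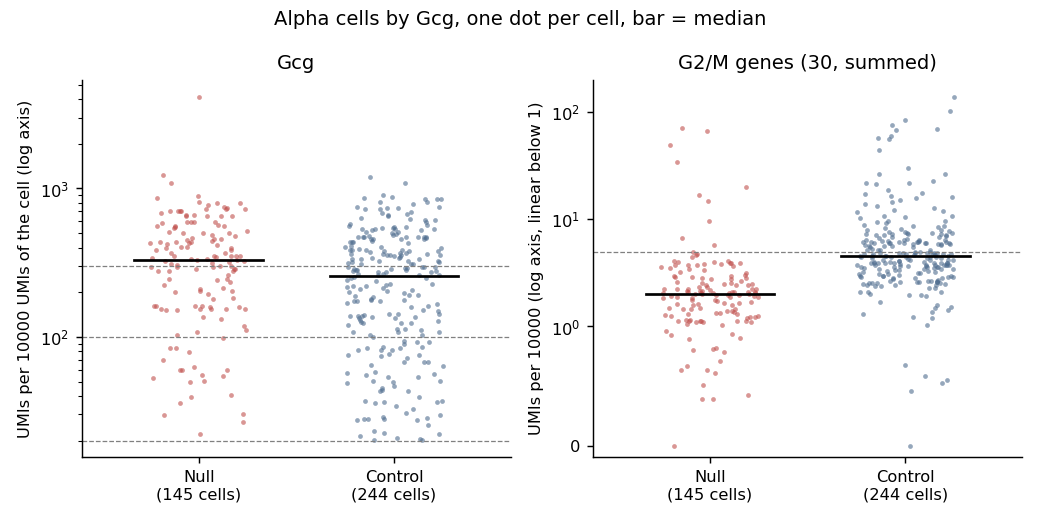
Gcg and the summed 30 genes of the G2 and M phases in UMIs per 10000 in every alpha cell on log axes, with 145 Null cells left of 244 Control cells, the bar at the median and dashed lines at 20, 100 and 300 for Gcg and at 5 for the G2 and M phase genes. The Gcg medians are 329.9 in Null and 256 in Control, and the G2 and M medians are 2.03 in Null and 4.51 in Control.

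Other phases and classes were compared by the same lists. S phase genes were lower in 25 of 25 cases in Null alpha cells, 5 past 2-fold beside 3.44% of all genes, with a median of -0.59 that became -0.11 after free RNA was subtracted. The ribonucleotide reductase subunit Rrm2 had 8.22 CPM in Null and 29.7 CPM in Control (-1.85), and Pcna, the replication clamp, 57.3 CPM in Null and 74.2 CPM in Control. G2 and M phase genes had a median of -0.93 in beta cells, with 14 of 30 at least 2-fold lower beside 3.47% of all genes in beta cells, of -0.11 in hormone-low Fev cells and of -0.10 in acinar cells, and the difference between these classes was not tested. The linker histone gene Hist1h1b had 32.6 CPM in Null and 116 CPM in Control alpha cells (-1.83). Ccnd1, cyclin D1, had 27.0 CPM in Null and 84.4 CPM in Control (-1.64), and in the lowest Gcg range 21.4 CPM in Null and 203 CPM in Control. Its ratio was 0.13 without cells holding 5 or more G2 and M phase UMIs, a setting that left 64 Null and 55 Control cells. Estimated free RNA was 28.0 CPM in Null and 72.8 CPM in Control for Hist1h1b, and 10.9 CPM in Null and 42.8 CPM in Control for Ccnd1. For Rrm2 it was 6.39 CPM in Null and 18.3 CPM in Control, and for Pcna 12.6 CPM in Null and 32.2 CPM in Control.

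**Figure D5:**
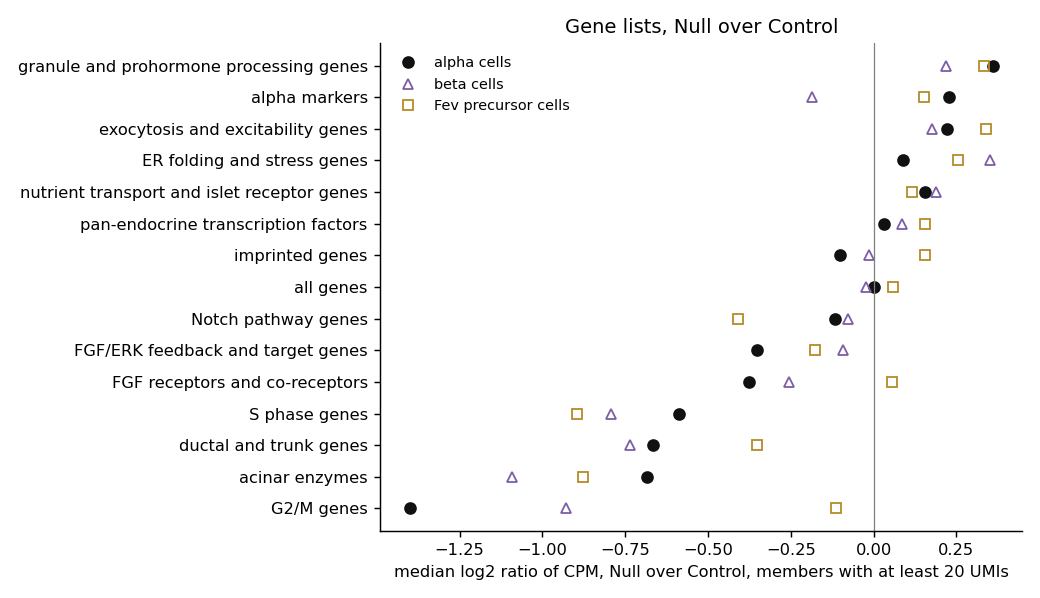
Median log2 ratio of Null over Control for 15 gene lists in alpha, beta and hormone-low Fev cells (Fev precursor), over list members with at least 20 UMIs. In alpha cells granule genes lie at 0.36 and G2 and M phase genes at -1.40, and in beta cells these lists lie at 0.22 and -0.93.

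Hes1, the Notch target that holds progenitors back from the endocrine fate, was among the genes farthest below Control. It had 26.0 CPM in Null and 176 CPM in Control alpha cells (chr16:30064384-30067796, plus strand; log2 ratio -2.76, -3.08 to -2.46). In Control it stood at 303, 209 and 89.7 CPM from the lowest to the highest Gcg range, and in Null at 28.5, 24.8 and 25.9 CPM. Thinned, 6.21% of Null and 27.0% of Control alpha cells held a Hes1 UMI, against 40.7% of Null and 72.1% of Control unthinned, and 72.2% of Null and 76.6% of Control acinar cells did when thinned. Estimated free RNA was 45.4 CPM in Null, above the 26.0 CPM measured, and 141 CPM in Control, most of the 176 CPM measured. Beta cells had a log2 ratio of -1.51 and hormone-low Fev cells of -1.38.

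Of the Notch genes, 4 were higher and 10 lower in Null, with 5 of the lower genes past 2-fold and a median of -0.12, which was 0.28 on thinned counts. Ductal and trunk genes had 11 of 12 lower, 5 past 2-fold, with a median of -0.66. For both lists the share of all genes at least 2-fold lower in Null was 3.44%. Sox9, the trunk progenitor factor, had 53.3 CPM in Null and 132 CPM in Control (-1.31), beside estimated free RNA of 23.0 CPM in Null and 65.9 CPM in Control. Spp1, osteopontin, had 145 CPM in Null and 345 CPM in Control (-1.25), and Cd24a, a surface protein of progenitors, 23.9 CPM in Null and 67.9 CPM in Control (-1.51). Wfdc2, an epithelial protease inhibitor, had 33.9 CPM in Null and 101 CPM in Control (-1.58), and Onecut1, a progenitor factor, 11.9 CPM in Null and 42.0 CPM in Control (-1.81). Estimated free RNA was 81.9 CPM in Null and 211 CPM in Control for Spp1, and 16.9 CPM in Null and 42.4 CPM in Control for Cd24a. It was 16.6 CPM in Null and 58.8 CPM in Control for Wfdc2, and 12.7 CPM in Null and 28.4 CPM in Control for Onecut1.

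Several of the lower genes were near or under the estimate of free RNA. Serpina6, the corticosteroid carrier, had 45.1 CPM in Null and 162 CPM in Control alpha cells (-1.85), with free RNA estimated at 57.6 CPM in Null and 174 CPM in Control and acinar cells at 1456 CPM (Null) and 1703 CPM (Control). Ptn, the growth factor pleiotrophin, had 37.1 CPM in Null and 118 CPM in Control (-1.66), with estimates of 52.9 CPM in Null and 161 CPM in Control. Nupr1, a stress-induced chromatin protein, had 23.9 CPM in Null and 76.9 CPM in Control (-1.69), with estimates of 41.2 CPM in Null and 87.6 CPM in Control. The metallothioneins Mt1, with 88.5 CPM in Null and 263 CPM in Control (-1.57), and Mt2, with 35.0 CPM in Null and 97.9 CPM in Control (-1.48), bind zinc and copper, and the estimates were 77.0 CPM in Null and 214 CPM in Control for Mt1 and 26.0 CPM in Null and 75.1 CPM in Control for Mt2. For such genes the ratio was not separable from the load of free RNA.

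Genes of the sex chromosomes differed between the pools. Xist, the RNA that coats the inactive X chromosome in females (chrX:103460366-103483254, minus strand), had 1 UMI in Null alpha cells and 2283 UMIs, or 570 CPM, in Control alpha cells. The Y-linked genes Ddx3y and Eif2s3y had 99.9 and 68.1 CPM in Null alpha cells and 37.2 and 28.2 CPM in Control alpha cells. A Ddx3y UMI was found in 84.1% of Null and 29.5% of Control alpha cells, and an Xist UMI in 0.69% of Null and 65.2% of Control alpha cells. Sex and genotype therefore cannot be told apart in these pools. Tsix, with 0.53 CPM in Null and 52.7 CPM in Control, overlaps Xist on the opposite strand, and since no source used here states strand-aware counting, reads of the overlap may belong to either gene.

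Most FGF signalling genes were low in alpha cells. Etv1, counted among the targets, was abundant, with 424 CPM in Null and 367 CPM in Control (0.21). Ccnd1, described above, was counted there as well and is among the 3 past 2-fold (-1.64). Targets and feedback inhibitors of FGF and ERK had a median of -0.35, with 4 higher and 9 lower in Null, 3 past 2-fold, and the median was -0.08 after free RNA was subtracted and 0.13 without cells holding 5 or more G2 and M phase UMIs. Spry1 had 3.18 CPM in Null and 7.99 CPM in Control (-1.33), Spry2 9.81 CPM in Null and 8.24 CPM in Control, and Dusp6, an ERK phosphatase, 6.63 CPM in Null and 8.24 CPM in Control (-0.31). Dusp5 was higher, at 37.9 CPM in Null and 23.0 CPM in Control (0.72). Of the receptors, Fgfr1 had 9.81 CPM in Null and 12.7 CPM in Control alpha cells and Fgfr2 6.63 CPM in Null and 15.2 CPM in Control (-1.20), and the receptor list had a median of -0.38 with 2 of 7 past 2-fold. Beside both FGF lists, 3.44% of all genes were at least 2-fold lower in Null and 1.37% at least 2-fold higher. Estimated free RNA was 0.94 CPM in Null and 3.21 CPM in Control for Spry1, 1.00 CPM in Null and 3.07 CPM in Control for Dusp6, and 2.19 CPM in Null and 5.66 CPM in Control for Fgfr1. For Fgfr2 it was 2.94 CPM in Null and 7.07 CPM in Control.

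The remaining lists were close to all genes or mixed. Of the imprinted genes 9 were higher and 13 lower in Null, with a median of -0.10, while their summed level had a log2 ratio of 0.16, so median and sum differ in sign. H19, an imprinted growth-restraining RNA, had 57.0 CPM in Null and 136 CPM in Control (-1.25), and Plagl1, an imprinted zinc finger factor, 9.54 CPM in Null and 23.2 CPM in Control (-1.28). Estimated free RNA was 71.1 CPM in Null and 131 CPM in Control for H19, and 7.92 CPM in Null and 22.8 CPM in Control for Plagl1. Beta markers had a median of -0.01 and a summed log2 ratio of 0.48. Within them Ucn3, urocortin 3, had 10.6 CPM in Null and 4.75 CPM in Control (1.16). Of the endocrine precursor genes, 7 were higher and 8 lower, with a median of -0.02. Cholesterol synthesis genes were lower in 15 of 18 cases with a median of -0.16, immediate early genes in 19 of 24 with a median of -0.25, and cyclin and CDK inhibitor genes in 7 of 9 with a median of -0.24. Folding and stress genes of the endoplasmic reticulum had a median of 0.09, apoptosis and p53 genes of 0.01, and adhesion and guidance genes of -0.01, where Cntn1 at 13.8 CPM in Null and 3.996 CPM in Control and Nrp1 at 5.30 CPM in Null and 12.2 CPM in Control were the members past 2-fold. The estimate for Nrp1 was 5.86 CPM in Null and 13.5 CPM in Control, above its level in both.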

How the data were processed

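The deposited values were UMI counts per gene and barcode, whole numbers that the authors had not normalized, in 1 matrix for each pooled library. The submitters' processing notes name the mm10 build, Cell Ranger 6.1.1, bcl2fastq and Seurat 3.2.3. The Null library held 16708 barcodes with 271129120 UMIs and the Control library 30209 barcodes with 339959625 UMIs. Classes were set by the gates stated above. Acinar cells, used for comparison, had at least 3 UMIs of Rbpjl and Ptf1a and every hormone below 20 per 10000, and mesenchymal cells had collagens of at least 50 per 10000.

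Counts were summed per class and library, and log2 ratios of CPM were given with exact conditional intervals, a count of 0 being set to 3. Genes needed at least 100 UMIs over the classes compared, or 20 for the lists. Free RNA was estimated as the library's average profile scaled so that acinar enzymes matched the class. The gene lists (30 lists, 440 genes, 1 of which matched no feature) and the classed cells were chosen with earlier results of these data known. Named genes were the 15 farthest from equality by the nearer bound of the interval in each direction between Null and Control, among genes of at least 50 CPM. Between classes they were the 15 each way against beta cells, 10 each way against Fev cells and epsilon cells, and 8 each way between Gcg ranges by the smaller ratio of both libraries, and not all are described. Genes on the lists were named beside these.

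Scrublet in scanpy 1.11.5 scored doublets, which were kept and removed as an alternative. Python 3.11.15, numpy 2.4.6, scipy 1.17.1, pandas 2.3.3 and matplotlib 3.10.9 were used, and the ratio estimate was tested on simulated data. Gene identifiers matched GENCODE vM21 for 32158 of 32285 features (99.6%). Alternatives changed the UMI minimum, mitochondrial limit, hormone minimum, doublet removal, second-hormone cells, scaling, gene filter, thinning and free RNA. Some genes that these lists and rules hold are counted in the totals and are not reported here by name.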

Additional observations from a re-analysis of the deposited data

Results flagged for a closer look

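Of 416 listed and named genes with at least 20 UMIs in both classes, 4 differed between Null and Control by at least 2-fold in opposite directions in alpha and beta cells, and with 1 library per genotype the difference between the cell types was not tested. Among all 11476 such genes 11 did so, and 4463 had ratios of opposite sign at any size. Npy, neuropeptide Y, had a log2 ratio of -1.50 in alpha cells and of 1.605 in beta cells. It averaged 1.59 CPM in Null and 4.50 CPM in Control alpha cells, against 945 CPM (Null) and 311 CPM (Control) in beta cells, so the alpha value rests on few UMIs.

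The chemokine Cxcl2 had a log2 ratio of 6.72 in alpha cells and of -6.20 in beta cells, and 298 of its 299 Null UMIs in alpha cells came from the cell that carried Mcpt8. Tyrobp, an adaptor of leukocyte receptors, had 4.26 in alpha cells and -3.35 in beta cells, and Fcer1g, a subunit of immunoglobulin receptors, had 2.41 in alpha cells and -1.93 in beta cells. Leukocyte genes summed to 90.4 CPM in Null and 40.5 CPM in Control alpha cells, and to 64.8 CPM in Null and 110 CPM in Control beta cells. Their part in these ratios was not tested further.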

How the results depend on the processing

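Of 86 alternative values of counts and shares, 60 stayed within 1.5 times the main value or within counting error, as did 646 of 883 values of named genes. Of 406 list medians, 317 stayed within 0.1 of the main median on the log2 scale, and 370 kept its sign. The alpha share of hormone cells ran from 35.0% to 37.7% in Null and from 42.8% to 49.7% in Control, below Control in Null throughout. Counts of genes past 2-fold depended on the gene filter, here given as higher in Null, lower in Null, higher in alpha than beta cells and lower in alpha than beta cells. They were 166, 417, 393 and 293 with at least 20 UMIs per gene, 641, 1053, 697 and 419 with at least 1 UMI, and 0, 15, 37 and 40 on thinned counts, where fewer genes were tested. Higher genes numbered 35 after free RNA was subtracted and 14 without the Mcpt8 cell, and lower genes 47 without barcodes over the automatic Scrublet thresholds. With hormones of at least 100 per 10000 the counts were 12 higher and 53 lower. Without cells holding Mki67 or Top2a they were 7 higher, 23 lower and 64 higher in alpha than beta cells, and without cells with 5 or more G2/M UMIs they were 15, 14, 46 and 61. Removing cells with G2/M genes at 5 per 10000 gave 12 higher and 28 lower. These removals also shrink the classes, to 83 Null and 99 Control alpha cells without Mki67 or Top2a, and to 64 Null and 55 Control without 5 or more G2/M UMIs.

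Of the 883 values of named genes, 862 kept the sign of the main value. Of those that did not, 6 belonged to genes past 2-fold in the main setting. Srgn had -1.65 with hormones of at least 100 per 10000 and -0.50 without cells with G2/M genes at 5 per 10000. Ier3 had -0.18 with hormones of at least 100, -0.44 without the Mcpt8 cell and -0.042 without cells with 5 or more G2/M UMIs, and Ccnd1 had 0.13 without those cells. The Mcpt8 cell is absent from each setting that turned Srgn or Ier3, and for Ccnd1 the cause was not tested. The G2/M median in alpha cells ran from -1.68 to -0.74, the S phase median from -0.75 to -0.11 and Hes1 from -5.77 to -1.99. Of these alternatives, 6 were chosen after seeing the data. No paired analysis was possible because each group was 1 pooled library.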
